A study of Homo sapiens with 30 samples.

Results

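The 10 genes described here are LGR5, ASCL2, AXIN2, DKK1, EPHB2, EPHB3, SOX9, RNF43, ZNRF3 and NKD1, a set of Wnt target genes and intestinal stem cell genes. They were chosen by name, not by a value, but with earlier results of these data known. They are 10 of the 60675 genes in the deposited table, and all 10 had enough counts to be tested. The cells were HT29, an established human colorectal adenocarcinoma line, held for 24 h with a herbal extract or with its solvent. The 30 libraries fell into 13 groups. The vehicle group (0.1% DMSO, per its label) had 3 libraries. The other groups received a 70% ethanol extract of Banhasasim-tang (2 libraries per dose, replicates 2 and 3), Sayeok-tang (3 per dose), Bojungikgi-tang (3 per dose) or Yijung-tang (1 per dose, replicate 3). Each extract was given at 500, 100 and 20 µg/mL. The series text names a higher solvent concentration than the label, and the label was followed. HT29 is a cancer line in culture with no stroma and no crypt, which limits it as a model of the intestinal stem cell. No label states that replicates came from separate cultures, and the p-values therefore cover the spread among these libraries alone, which may be technical.

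In canonical Wnt signalling a secreted Wnt protein binds a Frizzled receptor and its LRP co-receptor, the complex that destroys beta-catenin is held back, and beta-catenin enters the nucleus to switch on genes with TCF and LEF factors. At the base of the intestinal crypt this signal keeps stem cells dividing. Several of its targets feed back on it: some dampen it outside the cell (DKK1), at the membrane (RNF43, ZNRF3) or in the cytoplasm (AXIN2, NKD1), and one is a receptor for R-spondins, which prolong it (LGR5). ASCL2 and SOX9 are transcription factors of the crypt base, and EPHB2 and EPHB3 are receptors that position cells along the crypt. Such lines as HT29 carry a damaged APC gene, so that part of the pathway runs without a Wnt signal.

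Among the 10 genes DKK1 and EPHB3 had the largest dose-related differences, and the bases before their start sites are shown to compare them for the letters that TCF and LEF factors prefer. The windows come from RefSeq (GRCh38.p14, plus strand, 5′ to 3′) and hold the 250 bases before the start. The DKK1 window lies at chr10:52314031-52314280 and EPHB3 at chr3:184561535-184561784. Capitals mark the core CTTTG followed by 2 more letters that are each A or T, searched on both strands.
DKK1: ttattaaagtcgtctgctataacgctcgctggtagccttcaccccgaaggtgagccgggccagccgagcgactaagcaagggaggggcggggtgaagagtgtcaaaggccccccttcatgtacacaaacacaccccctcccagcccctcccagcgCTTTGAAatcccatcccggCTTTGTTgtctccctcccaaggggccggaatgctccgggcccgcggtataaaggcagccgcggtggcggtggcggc
EPHB3: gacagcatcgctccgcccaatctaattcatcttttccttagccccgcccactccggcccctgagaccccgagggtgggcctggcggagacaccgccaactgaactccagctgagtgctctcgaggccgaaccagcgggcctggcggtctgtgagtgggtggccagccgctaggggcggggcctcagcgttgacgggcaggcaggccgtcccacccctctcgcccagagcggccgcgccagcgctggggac
DKK1 held 2 such matches, both on the plus strand, the first beginning 95 bases and the other 76 bases before the start. No match was found in the EPHB3 window, nor in those of EPHB2 and RNF43, the other members in the RefSeq table (4 of the 10 were matched). Counted with the 50 bases after the start, 4829 of 35116 windows (13.8%) held at least 1 match and 556 (1.58%) held 2 or more. A match of letters is a description and says nothing of binding.

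Total expected counts per library ran from 36.3 to 71.6 in units of 1e6, with a median of 50.1. Levels are given as CPM, counts per 1e6 counts after scaling of library sizes. All 11 colon epithelium markers listed were found, among them EPCAM (496 to 629 CPM), KRT20 (210 to 285 CPM) and VIL1 (146 to 195 CPM), while COL1A2, COL3A1 and CDH5 of fibroblasts and endothelium and CD3E of leukocytes had a median of 0 and at most 3 counts. Some libraries stood apart. The 2 Banhasasim 500 µg/mL libraries gave 9.41% and 12.9% of their counts to mitochondrial ribosomal RNA, against 0.914% to 1.91% in the other 28. On the first principal component over all genes, vehicle replicate 1 (-57.3) and Banhasasim 500 µg/mL replicate 2 (-28.7) lay at one end and Bojungikgi 500 µg/mL replicate 2 (32.4) at the other. Calls of these 10 genes that were lost without 1 of these libraries are given with and without it. The same holds for counts of them that moved more than 1.5 times, while some smaller moves are not given. In such bulk RNA, fewer cells with a transcript and less of it per cell cannot be told apart.

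The 10 genes covered a wide range of expression. Per kb of exon, which makes genes comparable, RNF43 (median over the 30 libraries 41.9 CPM per kb, range 33.6 to 49.5) and SOX9 (37.1, range 34.1 to 39.4) were the most abundant, and their ranges overlapped. ZNRF3 (18.0, range 15.6 to 19.5) and AXIN2 (13.1, range 12.5 to 14.4) followed, each apart from its neighbours. DKK1 (8.37, range 4.09 to 10.5), LGR5 (7.78, range 5.69 to 9.50) and EPHB3 (5.09, range 3.01 to 5.85) lay next, and neighbours in that order overlapped. ASCL2 (1.40, range 0.89 to 1.82), EPHB2 (0.201, range 0.154 to 0.267) and NKD1 (0.0592, range 0.0327 to 0.0768) were the lowest, and none of these 3 overlapped another member. NKD1 rested on 27 to 96 counts per library, ASCL2 on 73 to 239 and EPHB2 on 86 to 212. Their intervals were the widest of the 10, and small differences in these 3 were not detectable.

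The first comparison asked how the genes changed with dose, from 20 to 500 µg/mL of the same extract. With Banhasasim, DKK1 fell to about 0.496 of its level at 20 µg/mL, EPHB3 to 0.615 and LGR5 to 0.840, and no member was called higher. In edgeR's quasi-likelihood test with Benjamini-Hochberg adjustment over all genes, these 3 of the 10 were called (adjusted p under 0.05), all lower, where 7.82% of the 18783 genes tested were called (3.82% higher and 4% lower). With Sayeok, 1 of the 10 was called, EPHB3, which fell, against 3.17% of all genes called and 2.03% called lower. With Bojungikgi none of the 10 was called by edgeR (4 had an unadjusted p under 0.05, and DESeq2 called 1), against 1.76% of all genes (0.602% higher and 1.16% lower). The median log2 fold change of the 10 was -0.24 for Banhasasim, -0.01 for Sayeok and -0.02 for Bojungikgi, beside 0 over all genes tested in each. The count for Banhasasim was 2 without its 500 µg/mL replicate 2, when 636 of all genes were called in place of 1468, and 5 without replicate 3, when 1518 were, and the call for Sayeok rests on 2 libraries named below.

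DKK1 (ENSG00000107984, GRCh38 chromosome 10, 52314296 to 52318042, plus strand, GENCODE 29) encodes a secreted antagonist that binds the LRP co-receptors. With Banhasasim at 20 µg/mL it measured 18.7 and 18.3 CPM, followed by 15.6 and 13.9 CPM at 100 µg/mL and by 9.02 and 9.34 CPM at 500 µg/mL. The 3 doses did not overlap, and the level was lower at each higher dose. How many of all genes separate in this way between doses was not counted, for DKK1 or for the genes below. From 20 to 500 µg/mL the log2 fold change was -1.01 ± 0.11 (SE, 2 libraries against 2, adjusted p = 2.26e-07), between -1.04 and -0.98 under all 10 alternatives tried, and called in each. At 100 µg/mL the log2 difference from 20 µg/mL was -0.33 ± 0.10, with an unadjusted p of 0.00348 and an adjusted p of 1, and so was not called. At that dose none of the 10 genes was called with any of the 3 replicated extracts: at an unadjusted p under 0.05 edgeR counted 2 for Banhasasim, 0 for Sayeok and 0 for Bojungikgi, and DESeq2 called 0 in each, beside 0.0852%, 0% and 0.0106% of all genes called by edgeR.

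With the other extracts DKK1 stayed nearer its level at the lowest dose. Sayeok gave 18.0, 18.1 and 18.3 CPM at 20 µg/mL, 19.4, 18.3 and 18.6 at 100 µg/mL and 15.6, 18.0 and 18.6 at 500 µg/mL. Bojungikgi gave 18.9, 18.5 and 19.3 CPM at 20 µg/mL, 18.2, 18.8 and 19.0 at 100 µg/mL and 18.4, 13.5 and 17.8 at 500 µg/mL. At 500 µg/mL 1 library of each extract was lower than its other 2, replicate 1 of Sayeok and replicate 2 of Bojungikgi. The log2 difference of 500 from 20 µg/mL was -0.06 for Sayeok (95% interval -0.23 to 0.11) and -0.19 for Bojungikgi (-0.36 to -0.02, adjusted p = 0.318), and neither was called. Yijung, with 1 library per dose and no test, gave 19.5, 18.8 and 18.5 CPM at 20, 100 and 500 µg/mL.

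EPHB3 (ENSG00000182580, chromosome 3, 184561784 to 184582409, plus strand) encodes a receptor tyrosine kinase for ephrin-B ligands. With Banhasasim it measured 23.0 and 22.3 CPM at 20 µg/mL, 20.5 and 20.8 at 100 µg/mL and 14.2 and 13.6 at 500 µg/mL, again with no overlap between doses. The log2 fold change from 20 to 500 µg/mL was -0.70 ± 0.06 (adjusted p = 2.17e-08), between -0.73 and -0.68 under the 10 alternatives and called in each. With Sayeok the values were 22.6, 23.7 and 21.5 CPM at 20 µg/mL and 19.6, 19.0 and 19.6 at 500 µg/mL, so that all 3 high-dose libraries lay below all 3 low-dose ones. That fall was smaller (-0.22 ± 0.05, adjusted p = 0.0129), and its call was lost without Sayeok 500 µg/mL replicate 2 (adjusted p = 0.0742) or Sayeok 20 µg/mL replicate 2 (adjusted p = 0.0789). At 100 µg/mL Sayeok gave 24.2, 25.1 and 22.3 CPM, above or within its 20 µg/mL values. With Bojungikgi the values were 23.9, 26.1 and 24.5 CPM at 20 µg/mL, 23.9, 23.2 and 23.7 at 100 µg/mL and 22.6, 23.1 and 22.3 at 500 µg/mL (log2 difference of 500 from 20 µg/mL -0.13, 95% interval -0.24 to -0.03, adjusted p = 0.226). Yijung gave 23.4, 23.8 and 22.8 CPM at 20, 100 and 500 µg/mL.

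**Figure D1:**
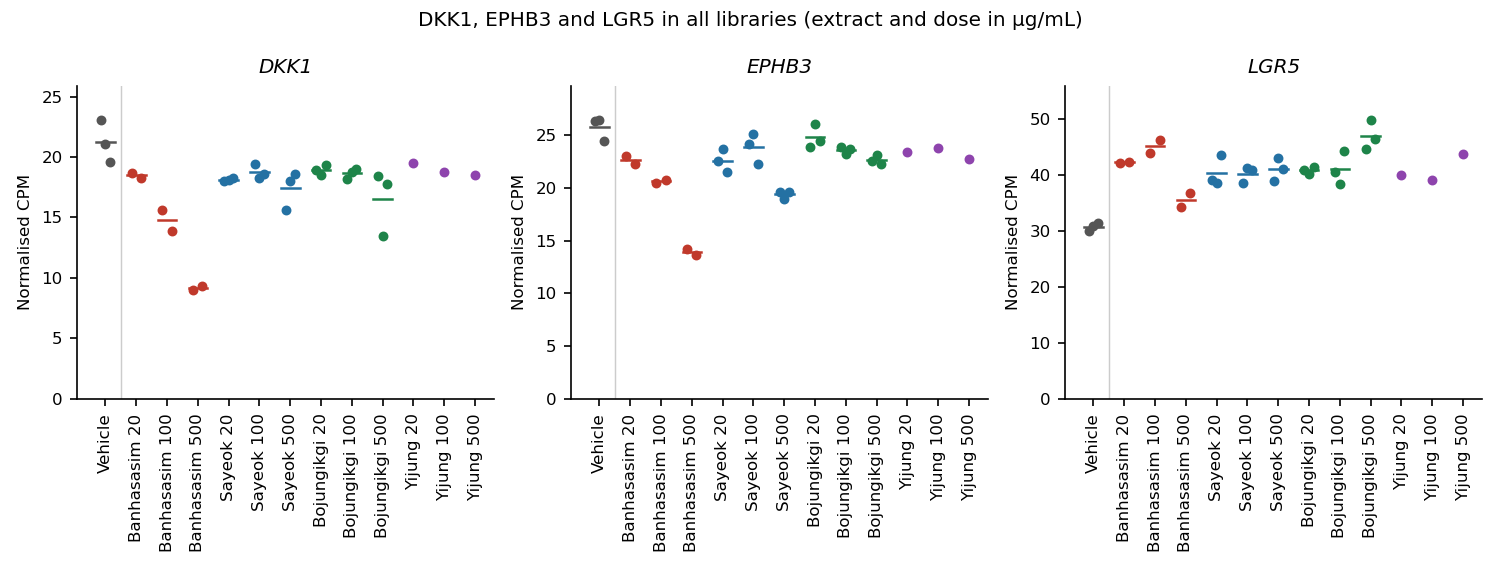
Level of DKK1, EPHB3 and LGR5 in CPM (y axis, from 0) in each of the 13 groups (x axis), 1 point per library and a bar at the group mean. DKK1 and EPHB3 are lowest in the 2 Banhasasim 500 µg/mL libraries (9.02 and 9.34 CPM, and 14.2 and 13.6 CPM), and LGR5 is lowest in the 3 vehicle libraries (29.9 to 31.4 CPM).

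LGR5 (ENSG00000139292, chromosome 12, 71439770 to 71586310, plus strand), the R-spondin receptor that marks crypt base stem cells, moved in a different way. With Banhasasim it measured 42.1 and 42.4 CPM at 20 µg/mL, 44.0 and 46.2 at 100 µg/mL and 34.3 and 36.7 at 500 µg/mL, so only the highest dose lay lower. Its log2 fold change from 20 to 500 µg/mL was -0.25 ± 0.07 (adjusted p = 0.0236). The call was lost without Banhasasim 500 µg/mL replicate 2 (-0.20, adjusted p = 0.28) and without either 20 µg/mL library (adjusted p = 0.107 and 0.128). Bojungikgi gave 40.9, 40.2 and 41.4 CPM at 20 µg/mL, 40.5, 38.4 and 44.2 at 100 µg/mL and 44.6, 49.9 and 46.4 at 500 µg/mL. Its 3 high-dose libraries lay above its 3 low-dose ones, but the log2 difference of 0.20 ± 0.06 missed the threshold (adjusted p = 0.0659). DESeq2 called it (adjusted p = 0.0412). With Sayeok the log2 difference was 0.02 (95% interval -0.09 to 0.14), from 39.1, 38.6 and 43.6 CPM at 20 µg/mL to 39.0, 43.0 and 41.0 at 500 µg/mL. Yijung gave 39.9, 39.1 and 43.8 CPM at 20, 100 and 500 µg/mL.

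Whether the extracts differed in these dose effects was tested by interaction terms. The sample codes put Banhasasim in a different series from Sayeok and Bojungikgi, and the part of this in the differences was not tested. The DKK1 change with Banhasasim was 0.95 log2 units lower than with Sayeok (difference -0.95 ± 0.14, adjusted p = 9.7e-05) and 0.82 lower than with Bojungikgi (difference -0.82 ± 0.13, adjusted p = 0.000553). For EPHB3 the differences were -0.48 ± 0.08 (adjusted p = 0.00143) and -0.57 ± 0.08 (adjusted p = 0.000113). All 4 were called under each of the 16 alternatives. For LGR5 the Banhasasim change was lower than the Bojungikgi one (difference -0.45 ± 0.09, adjusted p = 0.00498), a call lost without Banhasasim 500 µg/mL replicate 2 (-0.40, adjusted p = 0.0713), while the difference from Sayeok was not called (-0.27 ± 0.09, adjusted p = 0.202). Without that library 169 of all genes differed between Banhasasim and Bojungikgi, in place of 386. Thus 2 of the 10 members were called between Banhasasim and Sayeok, where 1.04% of all genes were (0.298% lower), and 3 between Banhasasim and Bojungikgi, where 2.06% were (0.745% lower). Between Bojungikgi and Sayeok edgeR called 0 of the 10 (1 at an unadjusted p under 0.05, and DESeq2 0), beside 0.0266% of all genes.

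**Figure D2:**
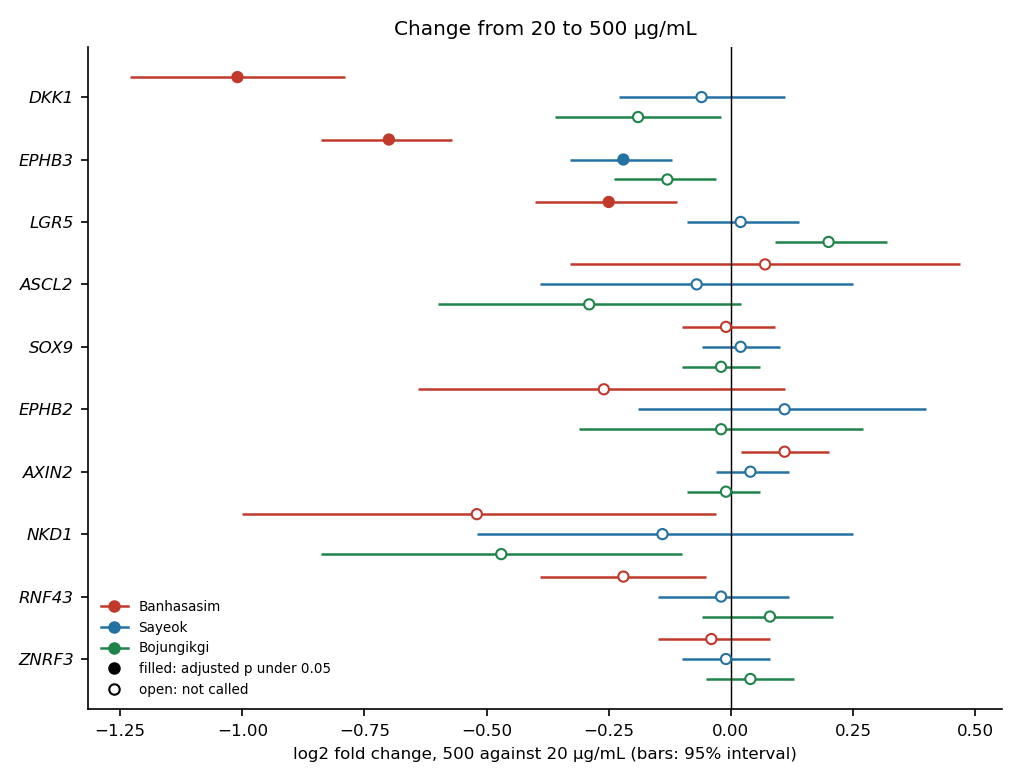
Log2 fold change from 20 to 500 µg/mL (x axis) of each of the 10 genes (y axis) for the 3 replicated extracts, with 95% intervals as bars and filled symbols for adjusted p under 0.05. DKK1 (-1.01) and EPHB3 (-0.70) with Banhasasim lie farthest from 0, and the wide intervals belong to the 3 genes of lowest count.

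The 2 libraries behind the Banhasasim changes are those with 9.41% and 12.9% of mitochondrial ribosomal RNA. With those genes left out of the table, an alternative added after the data were seen, DKK1 and EPHB3 kept their calls in this comparison and in both interaction tests. The part of RNA quality in the result was not tested. The summed leukocyte markers were 12.1 to 12.8 CPM in these libraries and 10.7 to 11.1 CPM at 20 µg/mL, with 0 of 4 tested markers called. The highest members of that list were CD68 (4.26 to 8.16 CPM over all libraries), CD14 (2.69 to 4.99 CPM) and ITGAM (1.28 to 2.35 CPM). PTPRC and CD3E had 4 counts or fewer in every library. Of the colon epithelium markers 1 of 11 rose and 1 of 11 fell with the dose of Banhasasim.

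The enzymes that remove Frizzled receptors from the membrane were RNF43 (ENSG00000108375, chromosome 17, 58352500 to 58417595, minus strand) and ZNRF3 (ENSG00000183579, chromosome 22, 28883592 to 29057487, plus strand), both ubiquitin ligases. With Banhasasim RNF43 measured 325 and 313 CPM at 20 µg/mL, 319 and 314 at 100 µg/mL and 252 and 295 at 500 µg/mL. Both high-dose libraries were lower, replicate 2 more so than replicate 3, and the log2 difference of -0.22 ± 0.08 was not called (adjusted p = 0.105). It was called without the higher of these, replicate 3 (-0.34, adjusted p = 0.0265), and, with all libraries kept, with no filter on low counts (-0.23, adjusted p = 0.0306). The lowest RNF43 values of all 30 libraries, 252 CPM each, were those of vehicle replicate 1 and Banhasasim 500 µg/mL replicate 2, and the highest, 371 CPM, that of Bojungikgi 500 µg/mL replicate 2. These are the same 3 libraries that stood at the ends of the first principal component. ZNRF3 lay between 122 and 136 CPM in all extract libraries, and its log2 difference of 500 from 20 µg/mL was -0.04 with Banhasasim (95% interval -0.15 to 0.08), -0.01 with Sayeok (-0.10 to 0.08) and 0.04 with Bojungikgi (-0.05 to 0.13).

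The cytoplasmic brakes were AXIN2 (ENSG00000168646, chromosome 17, 65528563 to 65561647, minus strand), a scaffold of the beta-catenin destruction complex and a common readout of Wnt signalling, and NKD1 (ENSG00000140807, chromosome 16, 50548330 to 50649249, plus strand), which binds dishevelled. AXIN2 measured 66.9 and 67.0 CPM with Banhasasim at 20 µg/mL, 65.9 and 68.5 at 100 µg/mL and 72.1 and 72.5 at 500 µg/mL. The high-dose libraries were above the others, opposite in direction to DKK1 and EPHB3, but the log2 difference of 0.11 ± 0.05 (95% interval 0.02 to 0.20) was not called (adjusted p = 0.148). With Sayeok (0.04, interval -0.03 to 0.12) and Bojungikgi (-0.01, interval -0.09 to 0.06) it was nearer 0. NKD1 measured 0.883 and 1.3 CPM with Banhasasim at 20 µg/mL and 0.570 and 0.982 at 500 µg/mL, which overlap. With Bojungikgi it measured 1.3, 1.34 and 1.31 CPM at 20 µg/mL and 0.808, 1.11 and 0.954 at 500 µg/mL, which do not overlap. Neither log2 difference was called (-0.52 ± 0.24, adjusted p = 0.203, and -0.47 ± 0.18, adjusted p = 0.225), although the first was called without Banhasasim 500 µg/mL replicate 3 (-0.96, adjusted p = 0.0366).

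The crypt transcription factors showed no called dose difference. SOX9 (ENSG00000125398, chromosome 17, 72121020 to 72126420, plus strand) lay within 134 and 155 CPM in all 30 libraries, and its log2 difference was -0.01 with Banhasasim (95% interval -0.10 to 0.09), 0.02 with Sayeok (-0.06 to 0.10) and -0.02 with Bojungikgi (-0.10 to 0.06). ASCL2 (ENSG00000183734, chromosome 11, 2268495 to 2270952, minus strand) measured 2.31 and 2.13 CPM with Banhasasim at 20 µg/mL and 2.39 and 2.27 at 500 µg/mL (log2 difference 0.07, interval -0.33 to 0.47). Its log2 difference was -0.07 with Sayeok (-0.39 to 0.25) and -0.29 with Bojungikgi (-0.60 to 0.02, adjusted p = 0.43). EPHB2 (ENSG00000133216, chromosome 1, 22710839 to 22921500, plus strand), the sister receptor of EPHB3, measured 2.51 and 2.52 CPM with Banhasasim at 20 µg/mL and 1.92 and 2.27 at 500 µg/mL (log2 difference -0.26, interval -0.64 to 0.11, adjusted p = 0.444). Its 2 high-dose values lay below both low-dose values, and its interval reaches to about the size of the EPHB3 change. The EPHB2 log2 difference was 0.11 with Sayeok (-0.19 to 0.40) and -0.02 with Bojungikgi (-0.31 to 0.27).

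**Figure D3:**
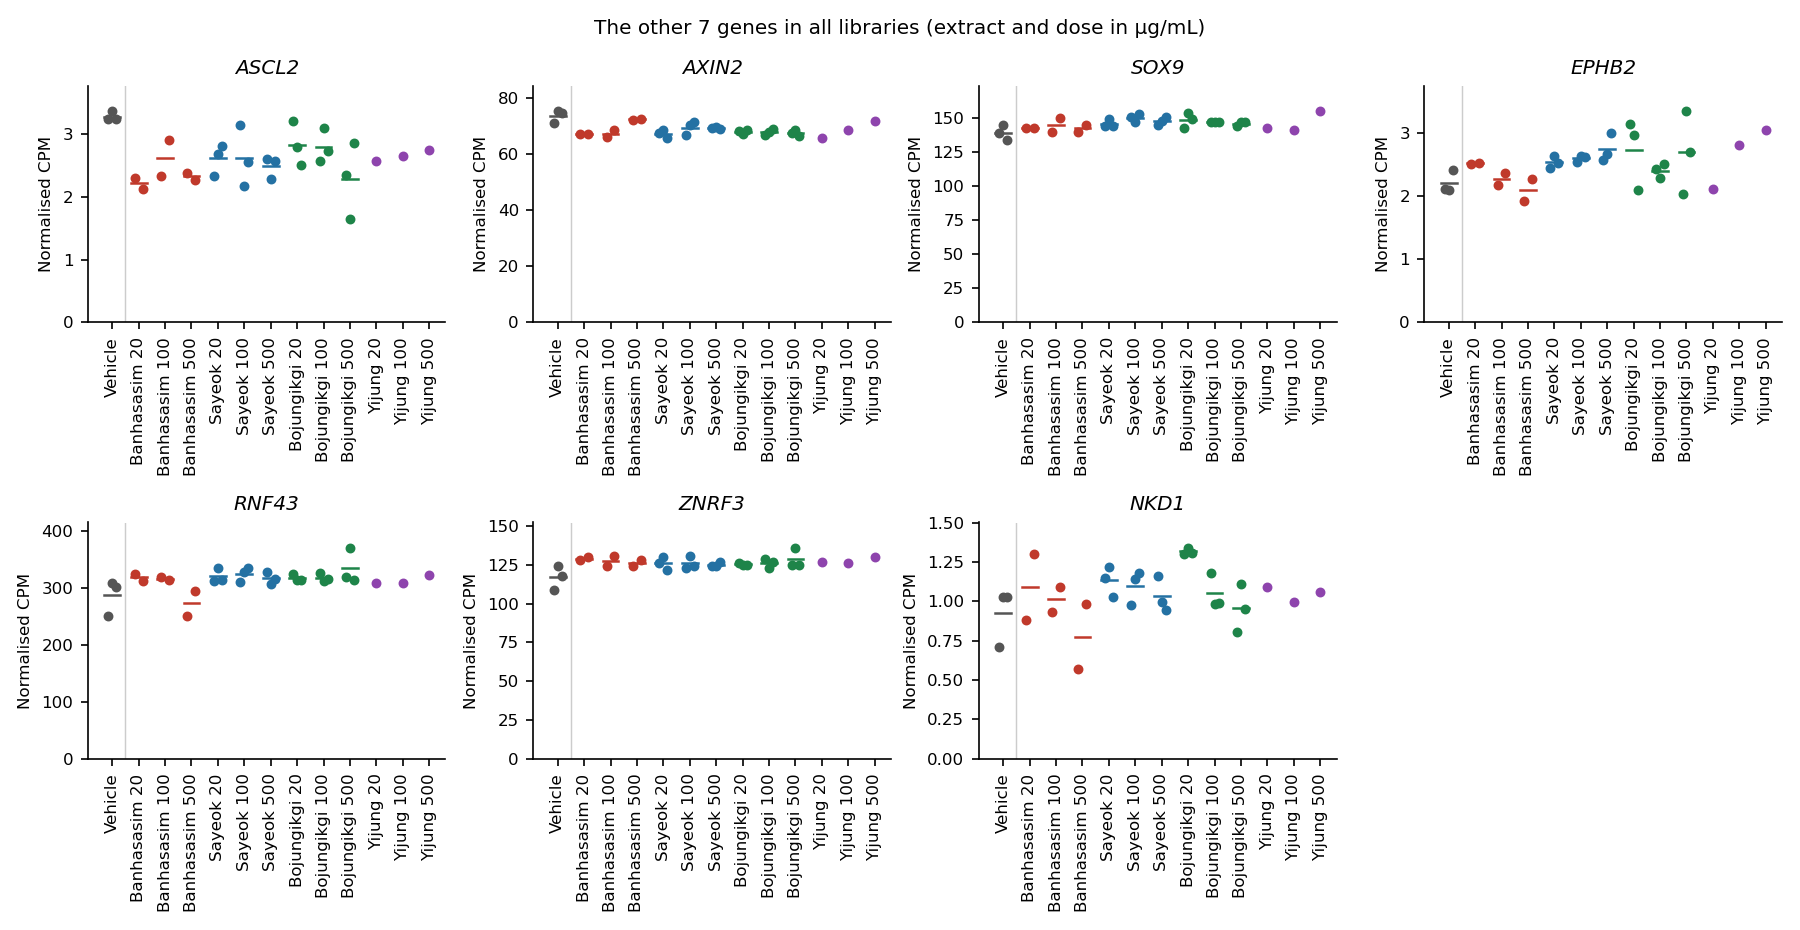
Level in CPM (y axes, from 0) of the other 7 genes in each of the 13 groups (x axis), 1 point per library and a bar at the group mean. SOX9 lies within 134 and 155 CPM throughout, and RNF43 is lowest (252 CPM) in vehicle replicate 1 and Banhasasim 500 µg/mL replicate 2.

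The second comparison set each extract against the vehicle. These comparisons share the same 3 vehicle libraries, so their values are given side by side and are not independent. At 500 µg/mL edgeR called 4 of the 10 genes with Banhasasim (1 higher, 3 lower), 3 with Sayeok (1 higher, 2 lower) and 7 with Bojungikgi (3 higher, 4 lower). The background was 15.3%, 16.6% and 29.7% of all genes called (8.16%, 8.33% and 14.3% higher and 7.12%, 8.27% and 15.4% lower). At 20 µg/mL 4 were called with Banhasasim (1 higher, 3 lower), 4 with Sayeok (1 higher, 3 lower) and 2 with Bojungikgi (1 higher, 1 lower), beside 12.7%, 18.9% and 18.3% of all genes (6.43%, 8.86% and 9.11% higher and 6.23%, 10.1% and 9.2% lower). LGR5 was the gene called higher in all 6. Without vehicle replicate 1 the members' counts were 2, 2 and 5 at 500 µg/mL and 2 for each extract at 20 µg/mL. The calls over all genes then went from 2870, 3117 and 5579 to 2204, 1438 and 2826 at 500 µg/mL, and from 2378, 3554 and 3440 to 608, 991 and 845 at 20 µg/mL. Without Bojungikgi 500 µg/mL replicate 2 that extract's counts at 500 µg/mL were 4 members and 3101 genes. Medians of the 10 lay between -0.08 and 0.10, beside -0.02 to 0 over all genes.

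LGR5 was higher in every extract library than in every vehicle library. The vehicle gave 29.9, 30.8 and 31.4 CPM, and the 27 extract libraries ran from 34.3 to 49.9 CPM. Of all genes tested, 2.94% (553) had all 27 extract libraries above the vehicle. At 20 µg/mL LGR5 rose by a log2 fold change of 0.46 ± 0.06 with Banhasasim (adjusted p = 0.000117), 0.40 ± 0.06 with Sayeok (adjusted p = 0.000128) and 0.41 ± 0.06 with Bojungikgi (adjusted p = 0.000113). At 500 µg/mL it rose by 0.42 with Sayeok (adjusted p = 3.16e-05) and by 0.61 with Bojungikgi (adjusted p = 1.47e-07). These 5 calls held under all alternatives. With Banhasasim at 500 µg/mL it rose by 0.21 (adjusted p = 0.0265), a call lost without vehicle replicate 1 (0.19, adjusted p = 0.0827), without vehicle replicate 2 (adjusted p = 0.0569) and without Banhasasim 500 µg/mL replicate 3 (0.16, adjusted p = 0.282). It was also lost with no filter on low counts (adjusted p = 0.0511) and with only the compared groups in the fit (adjusted p = 0.132), and held under 6 of 11 alternatives.

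ASCL2, the other stem cell gene of the crypt base, went the opposite way. The vehicle gave 3.24, 3.37 and 3.24 CPM and all 27 extract libraries lay lower, from 1.65 to 3.21 CPM, where 3.66% (687) of all genes had all 27 below. It was called lower with Banhasasim at 20 µg/mL (-0.57 ± 0.17, adjusted p = 0.0303), Banhasasim at 500 µg/mL (-0.50 ± 0.17, adjusted p = 0.0499) and Bojungikgi at 500 µg/mL (-0.51 ± 0.15, adjusted p = 0.0126). The call at Banhasasim 500 µg/mL sits at the threshold, held under 1 of 11 alternatives and was lost with any 1 of the 5 libraries left out (adjusted p = 0.0671 to 0.234). For Bojungikgi it was lost without 500 µg/mL replicate 2 (-0.33, adjusted p = 0.115) and with only the compared groups in the fit (adjusted p = 0.113). The log2 difference for Sayeok was -0.40 at 500 µg/mL (adjusted p = 0.0682) and -0.33 at 20 µg/mL (adjusted p = 0.121), and for Bojungikgi at 20 µg/mL -0.22 (adjusted p = 0.315). For Banhasasim at 20 µg/mL the call was lost when vehicle replicate 1 or 2 was left out (adjusted p = 0.0809 and 0.0649). It was lost too with only the compared groups in the fit (adjusted p = 0.0945) and without either extract library (-0.63 without replicate 2 and -0.51 without replicate 3). That call held under 6 of 11 alternatives.

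DKK1 was also below the vehicle in all 27 extract libraries, though narrowly: the lowest vehicle value was 19.6 CPM (the others 23.1 and 21.1) and the highest extract value 19.5 CPM. With Banhasasim at 500 µg/mL it fell by 1.21 on the log2 scale (adjusted p = 1.38e-09), with Bojungikgi by 0.35 (adjusted p = 0.00256) and with Sayeok by 0.29 (adjusted p = 0.0171). The Sayeok call was lost without vehicle replicate 1 (-0.23, adjusted p = 0.11) and without Sayeok 500 µg/mL replicate 1 (-0.22, adjusted p = 0.103). With only the compared groups in the fit, the Sayeok and Bojungikgi calls were both lost (adjusted p = 0.0657 and 0.109). At 20 µg/mL the log2 difference was -0.23 with Sayeok (adjusted p = 0.0499, a call that held under 3 of 12 alternatives), -0.20 with Banhasasim (adjusted p = 0.148) and -0.17 with Bojungikgi (adjusted p = 0.151). The Sayeok call at 20 µg/mL was lost without vehicle replicate 1 or 2 or any 1 Sayeok library (adjusted p = 0.0869 to 0.278), with RLE size factors (0.0618), with the replicate block (0.0538), without mitochondrial ribosomal RNA genes (0.0591) and with only the compared groups (0.0705).

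EPHB3 lay at 26.4, 26.5 and 24.5 CPM in the vehicle, and 25 of 27 extract libraries were below all 3. How many of all genes had as many extract libraries below the vehicle was not counted. At 500 µg/mL it fell by 0.89 with Banhasasim (adjusted p = 3.44e-11), by 0.41 with Sayeok (adjusted p = 8.38e-06) and by 0.19 with Bojungikgi (adjusted p = 0.00716) on the log2 scale. The Bojungikgi call was lost with only the compared groups in the fit (adjusted p = 0.1). At 20 µg/mL the log2 fold change was -0.19 with Banhasasim (adjusted p = 0.0299) and -0.19 with Sayeok (adjusted p = 0.0129). Both of these calls were lost without vehicle replicate 1 (adjusted p = 0.114 and 0.0756) and without vehicle replicate 2 (adjusted p = 0.0831 and 0.0516). They were lost too with no filter on low counts and with only the compared groups in the fit. The first was also lost without either Banhasasim 20 µg/mL library (adjusted p = 0.111 and 0.205), and the other without Sayeok 20 µg/mL replicate 3 (adjusted p = 0.0769). With Bojungikgi at 20 µg/mL the log2 difference was -0.06 (95% interval -0.16 to 0.05).

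AXIN2 was 70.9, 75.1 and 74.5 CPM in the vehicle, and 23 of 27 extract libraries lay below all 3. The share of all genes with as many below was not counted here either. The differences were small. AXIN2 was called lower with each extract at 20 µg/mL (-0.13 with Banhasasim, adjusted p = 0.0331, -0.13 with Sayeok, adjusted p = 0.0152, and -0.12 with Bojungikgi, adjusted p = 0.0301) and with Bojungikgi at 500 µg/mL (-0.13, adjusted p = 0.0116). All 4 calls were lost without vehicle replicate 2 (adjusted p = 0.0909, 0.0598, 0.102 and 0.0519), with no filter on low counts and with only the compared groups in the fit. The difference at 500 µg/mL was -0.09 with Sayeok (adjusted p = 0.0984) and -0.02 with Banhasasim (95% interval -0.11 to 0.06).

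RNF43 and ZNRF3 were called higher with Bojungikgi at 500 µg/mL. RNF43 measured 252, 309 and 303 CPM in the vehicle and 319, 371 and 314 CPM there (log2 fold change 0.21, adjusted p = 0.0177). ZNRF3 measured 109, 124 and 118 CPM in the vehicle and 125, 136 and 125 CPM there (0.14, adjusted p = 0.0233). In both genes replicate 1 was the lowest vehicle library and replicate 2 the highest Bojungikgi library. Both calls were lost without vehicle replicate 1 (0.12, adjusted p = 0.186, and 0.08, adjusted p = 0.21) and without Bojungikgi 500 µg/mL replicate 2 (0.14, adjusted p = 0.148, and 0.10, adjusted p = 0.135). They were lost too with only the compared groups in the fit. ZNRF3 was not called by edgeR with any extract at 20 µg/mL. DESeq2 called it there with Banhasasim (0.15, adjusted p = 0.0186) and Sayeok (0.11, adjusted p = 0.0393), RLE size factors with Banhasasim (0.15, adjusted p = 0.0471), and edgeR without vehicle replicate 2 with all 3 extracts (adjusted p = 0.0292, 0.0383 and 0.0482).

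SOX9 (134 to 145 CPM in the vehicle), EPHB2 (2.10 to 2.41 CPM) and NKD1 (0.713 to 1.03 CPM) were called by edgeR with all libraries in none of the 6 vehicle comparisons. For SOX9 the log2 differences lay between 0.03 and 0.09, and DESeq2 called it with Bojungikgi at 20 µg/mL (0.10, adjusted p = 0.0274). For EPHB2 they lay between -0.07 and 0.31, and it was called for Bojungikgi without 500 µg/mL replicate 1 (0.45, adjusted p = 0.0179) or 20 µg/mL replicate 3 (0.47, adjusted p = 0.0359). NKD1 with Bojungikgi at 20 µg/mL (0.49 ± 0.18, adjusted p = 0.0555) came nearest, and was called without vehicle replicate 3 (0.56, adjusted p = 0.0486).

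Other measures moved with the vehicle contrast. The summed colon epithelium markers were 11900 to 13900 CPM in the vehicle and 10300 to 11500 CPM in all extract libraries, and between 5 and 8 of the 11 were called in the 6 comparisons, most of them lower. Of 4 leukocyte markers tested, 3 were called with Bojungikgi at 500 µg/mL (1 higher, 2 lower), 1 with Sayeok at 20 µg/mL (lower) and 0 in the other 4. Their list summed to 11.9 to 13.6 CPM in the vehicle and 8.82 to 12.8 CPM in the extract libraries. Its highest members by median over all libraries were CD68 (5.59 CPM), CD14 (3.28 CPM) and ITGAM (1.72 CPM), and PTPRC and CD3E were at or near 0. The sample codes put the vehicle in a series of its own, so that code series and vehicle cannot be told apart. The part of these in the differences from the vehicle was not tested.

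**Figure D4:**
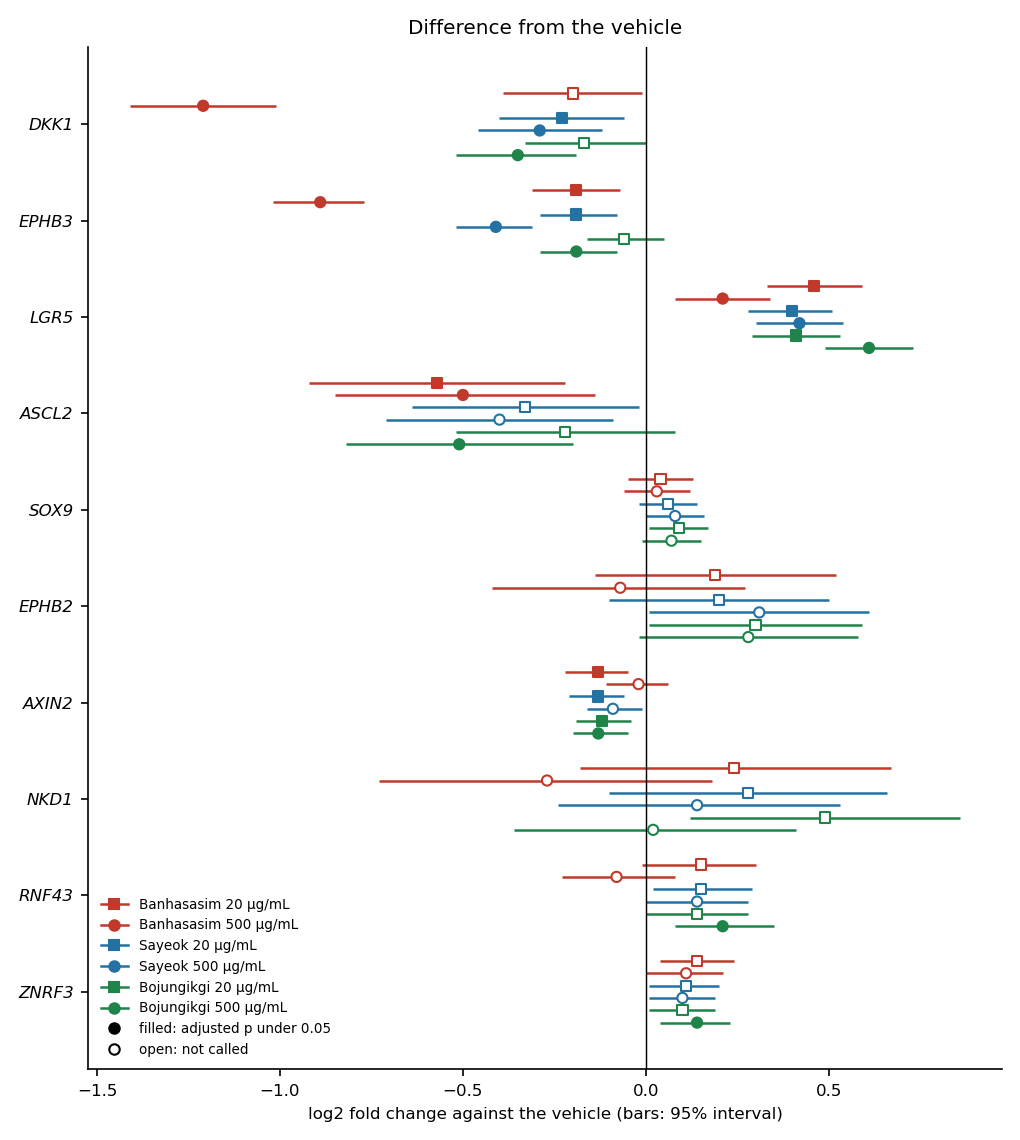
Log2 fold change against the vehicle (x axis) of the 10 genes (y axis) at 20 µg/mL (squares) and 500 µg/mL (circles) of 3 extracts, with 95% intervals as bars and filled symbols for adjusted p under 0.05. LGR5 lies right of 0 for all 6 groups (0.21 to 0.61), and DKK1 (-1.21) and EPHB3 (-0.89) with Banhasasim at 500 µg/mL lie farthest left.

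The rest of the pathway was described from 8 lists with 134 other genes, of which 101 had enough counts to be tested. From 20 to 500 µg/mL of Banhasasim, 21 of the 101 were called (20.8%), 11 higher and 10 lower, against 7.82% of all genes. Without Banhasasim 500 µg/mL replicate 2 the count was 8. With Sayeok 5 were called (2 higher, 3 lower, 4.95%) and with Bojungikgi 4 (1 higher, 3 lower, 3.96%), and each count was 2 with 1 library left out (Sayeok 500 µg/mL replicate 1 and Bojungikgi 20 µg/mL replicate 2).

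By role, the Banhasasim calls fell on both sides. Among 12 tested genes for Wnt ligands and their secretion 2 rose, WNT7B (24.9 CPM at 20 and 31.1 CPM at 500 µg/mL, log2 fold change 0.32 ± 0.06, adjusted p = 0.00168) and WNT11 (0.34, adjusted p = 0.0266). Of 15 receptors 1 rose and 2 fell: FZD7, a Frizzled (0.20, adjusted p = 0.0151), ROR1, a co-receptor for non-canonical Wnts (105 to 78.7 CPM, -0.42, adjusted p = 1.18e-05), and LGR4, the wider expressed relative of LGR5 (-0.22, adjusted p = 0.0463). None of the 3 tested secreted antagonists and agonists was called. Of 17 genes of the destruction complex and dishevelled 3 rose and none fell, with NKD2, the relative of NKD1, from 2.85 to 6.22 CPM (1.14 ± 0.17, adjusted p = 3.1e-05), DVL1 (0.34, adjusted p = 0.00332) and CSNK1A1, a kinase that primes beta-catenin for destruction (0.17, adjusted p = 0.0378). Of 14 nuclear partners of beta-catenin 1 fell, the co-repressor TLE1 (52.9 to 45.9 CPM, -0.21, adjusted p = 0.0101).

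Of 19 other Wnt target genes 2 rose and 4 fell. The homeobox gene PROX1 went from 12.8 to 7.54 CPM (-0.77, adjusted p = 5.66e-05) and ID2, an inhibitor of helix-loop-helix factors, from 35.7 to 26.2 CPM (-0.45, adjusted p = 0.00114), while the AP-1 subunit JUN rose (0.26, adjusted p = 0.00453). Of 11 other stem cell and crypt genes 1 rose and 3 fell. PROM1, which encodes the surface protein CD133, went from 146 to 103 CPM (-0.50, adjusted p = 5.36e-06), LRIG1, a brake on growth factor receptors, from 29.7 to 24.0 CPM (-0.31, adjusted p = 0.00303) and the transcription factor MYB from 40.6 to 33.7 CPM (-0.27, adjusted p = 0.00267), while KLF5 rose (0.18, adjusted p = 0.0227). Of 10 other Eph receptors and ephrins 2 rose and none fell, EPHB6, a receptor without kinase activity (45.9 to 58.4 CPM, 0.35, adjusted p = 0.00179), and the ligand EFNB1 (192 to 224 CPM, 0.22, adjusted p = 0.0108). EPHB3 fell in the same libraries in which a relative and a ligand of its family rose.

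With Sayeok the 5 called genes were EPHB6 (0.28, adjusted p = 0.0042) and EFNA3 (0.57, adjusted p = 0.0336), which rose, and PROM1 (-0.25, adjusted p = 0.00581), ID2 (-0.26, adjusted p = 0.0374) and ROR1 (-0.36, adjusted p = 1.77e-05), which fell. With Bojungikgi EPHB6 rose (0.38, adjusted p = 0.00026), and the Wnt-induced repressor SP5 (-0.41, adjusted p = 0.00555), ID2 (-0.29, adjusted p = 0.0276) and WLS, the carrier that brings Wnt proteins to the surface (-0.14, adjusted p = 0.0406), fell. Tested between extracts, 7 of the 101 differed between Banhasasim and Bojungikgi (3 higher, 4 lower with Banhasasim, 6.93% beside 2.06% of all genes), but 0 without Banhasasim 500 µg/mL replicate 2. Between Banhasasim and Sayeok 1 differed (0.99% beside 1.04% of all genes), WNT7B (0.35 ± 0.08, adjusted p = 0.0332). That count was 0 without the same library, 3 without Sayeok 500 µg/mL replicate 1 and 2 under 5 other alternatives.

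**Figure D5:**
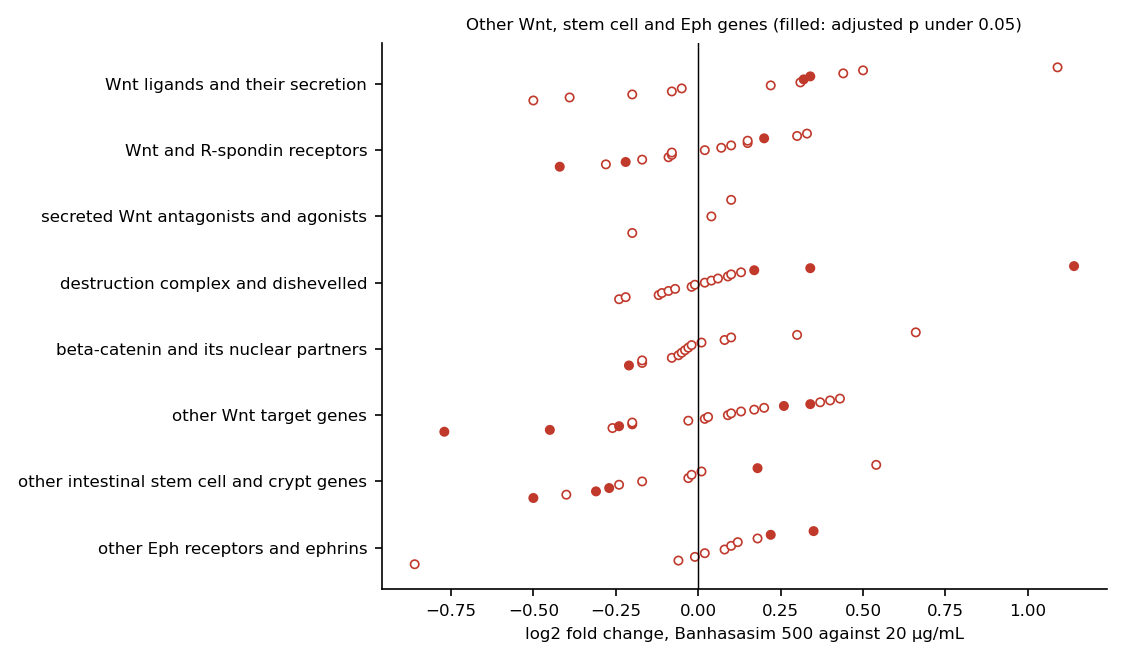
Log2 fold change from 20 to 500 µg/mL of Banhasasim (x axis) of the tested genes of the 8 other lists (y axis, 1 row of points per list), 1 point per gene, filled where adjusted p was under 0.05. NKD2 (1.14) lies farthest right and PROX1 (-0.77) farthest left among the called genes, and called points lie on both sides of 0.

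Against the vehicle at 500 µg/mL 30 of the 101 other pathway genes were called with Banhasasim (18 higher, 12 lower), 19 with Sayeok (10 higher, 9 lower) and 42 with Bojungikgi (27 higher, 15 lower), or 29.7%, 18.8% and 41.6%, beside 15.3%, 16.6% and 29.7% of all genes. Without vehicle replicate 1 the last 2 counts were 6 and 19, and without Banhasasim 500 µg/mL replicate 3 the first was 17. At 20 µg/mL 11, 20 and 20 of the 101 were called with Banhasasim, Sayeok and Bojungikgi. These were 10.9%, 19.8% and 19.8%, beside 12.7%, 18.9% and 18.3% of all genes. SP5, like DKK1 and AXIN2 a direct target that feeds back on the pathway, was lower with all 3 extracts at 500 µg/mL. It averaged 9.30 ± 0.626 CPM in the vehicle (SD, n = 3) and had log2 fold changes of -0.66 (Banhasasim, adjusted p = 1.98e-05), -0.45 (Sayeok, adjusted p = 0.000628) and -0.51 (Bojungikgi, adjusted p = 0.00012). At 20 µg/mL it was called lower with Banhasasim (-0.40, adjusted p = 0.00753) and not with the others. BIRC5, which encodes the survival protein survivin, fell by 0.40, 0.38 and 0.31 on the log2 scale with Banhasasim, Sayeok and Bojungikgi at 500 µg/mL. At 20 µg/mL its log2 fold changes were -0.50, -0.47 and -0.45 in that order. LRP6, the Wnt co-receptor that DKK1 binds, rose at 500 µg/mL with Sayeok (0.30, adjusted p = 0.0205) and Bojungikgi (0.40, adjusted p = 0.00177). It was also called higher at 20 µg/mL with Banhasasim (0.30, adjusted p = 0.0441), Sayeok (0.36, adjusted p = 0.00677) and Bojungikgi (0.31, adjusted p = 0.0168).

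Among themselves the 10 genes did not move as one over the 30 libraries. The correlation of log2 CPM over the 45 pairs had a median of 0.19 and ran from -0.62 (LGR5 and AXIN2) to 0.87 (DKK1 and EPHB3), a description over libraries that share groups and 1 vehicle. Among 10743 genes with at least 5 CPM on average, those whose pattern was most like DKK1 were TXNIP (r = 0.928), MT-ND4 (0.883) and PKDCC (0.881), and for EPHB3 they were DLL4 (0.903), ENC1 (0.890) and TXNIP (0.885). LGR5 was most like LNPK (0.906), PTPN4 (0.906) and WDR26 (0.905), RNF43 like SPEN (0.960), HUWE1 (0.951) and KMT2D (0.950), and ZNRF3 like ADNP (0.896), CBX5 (0.881) and SP1 (0.879). For AXIN2 the values were lower (B4GALT2 0.789, RELB 0.761 and ISG20L2 0.731), and for SOX9 they were the lowest of the 7 members this abundant (H3P6 0.662 and TXNDC16 0.634).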

How the data were processed

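Messenger RNA was sequenced from HT29 cells in 30 libraries. The values are expected counts, deposited by the authors as 1 table of genes. The build is GRCh38, and the tools named, without roles, are RSEM 1.3.3, STAR 2.7.3a, FastQC 0.11.9 and Trim Galore 0.6.5, per the submitters' processing notes. Neither the annotation release nor the strand setting is given in the sources used here, and overlapping and antisense genes cannot be told apart. RSEM shares reads between near-identical genes by estimate. Of 270 columns, 30 matched these samples by name and 240 were not used. Expected counts were rounded, by at most 0.5. Symbols were found for 56558 gene IDs (93.21%). Coordinates and exon lengths come from GENCODE release 29 and promoter windows from RefSeq.

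Genes were filtered with filterByExpr (minimum count 10), leaving 18783, and scaled by TMM. The model, fitted with R 4.3.3 and edgeR 4.0.16 to all 30 libraries, had a mean for each group and robust dispersions (residual degrees of freedom 17, biological coefficient of variation 6.38%). The 15 comparisons used two-sided quasi-likelihood tests. Genes were called where the p adjusted over all genes (Benjamini-Hochberg) was under 0.05. The standard error (SE) is the absolute log2 fold change over the square root of F. Intervals are 95%. Likeness used Pearson's r of log2 CPM (prior count 2). Alternatives were RLE size factors, DESeq2 1.42.0, no filter, only the compared groups, a replicate block, leaving out each library, and (added later) no mitochondrial ribosomal RNA genes. The scripts were tested on simulated data.

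The 10 members and the lists were chosen with earlier results of these data known. All members are named. From each other list up to 4 called genes per comparison, with the smallest p and a group mean of at least 1 CPM, could be named, and some that met this are not reported. Libraries with the same replicate number did not deviate together (correlations from -0.105 to 0.195, and in no comparison all above 0.1), so numbers were not taken as pairs. Titles name 1 batch for all libraries. Yijung, with 1 library per dose, was not tested. No 2 libraries of the same group agreed within sampling noise (other pairs were not compared).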

Additional observations from a re-analysis of the deposited data

Results flagged for a closer look

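The change from 20 to 500 µg/mL differed between extracts for 3 of the 10 genes, by the interaction terms in edgeR. Banhasasim also lies in a different series of sample codes from Sayeok and Bojungikgi, whose part was not tested. For DKK1 the Banhasasim change minus the Sayeok change was -0.95 log2 units (adjusted p = 9.7e-05) and minus the Bojungikgi change -0.82 (adjusted p = 0.000553). For EPHB3 the same differences were -0.48 (adjusted p = 0.00143) and -0.57 (adjusted p = 0.000113). For LGR5 the Banhasasim change minus the Bojungikgi change was -0.45 (adjusted p = 0.00498). In each, the 2 libraries of Banhasasim at 500 µg/mL, which hold 9.41% and 12.9% of mitochondrial ribosomal RNA, form 1 of the 4 groups compared, and the part of that RNA in the differences was not tested beyond leaving those genes out of the table.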

How the results depend on the processing

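DKK1 and EPHB3 were called under all alternatives for Banhasasim at 500 µg/mL, against 20 µg/mL, against the vehicle and against the other extracts' changes. Over the 10 genes and 15 comparisons, 33 results were called, and of their 402 alternatives 320 kept the call, 82 lost it and 0 reversed. Of 1476 alternatives to the other 117 results, 17 gained a call. For the alternatives that keep every library of the compared groups, counts of members called are listed where they moved more than 1.5 times, or to or from 0. Smaller changes in these counts are not listed. With no filter on low counts Sayeok 500 against 20 µg/mL went from 1 to 0, and against the vehicle at 20 µg/mL Banhasasim went to 2, Sayeok to 2 and Bojungikgi to 1. With only the compared groups in the fit, which leaves fewer libraries to estimate the spread, the counts against the vehicle at 500 µg/mL were 2 (Banhasasim) and 1 (Bojungikgi), and at 20 µg/mL 1 for each extract. For Bojungikgi 500 against 20 µg/mL DESeq2 gave 1 and the replicate block gave 1, both LGR5 (adjusted p = 0.0412 and 0.0333), in place of 0. The block left every other count of members within 1.5 times. It is a hint at most, since numbers did not pair the libraries.

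Where leaving out a library left 1 in its group, that sample was assumed to vary like the other groups. Leaving out 1 library at a time gave these lowest and highest counts of members. From 20 to 500 µg/mL they were 2 to 5 for Banhasasim, 0 to 1 for Sayeok and 0 to 0 for Bojungikgi. From 20 to 100 µg/mL they were 0 to 0 for each. Against the vehicle at 500 µg/mL they were 2 to 3 (Banhasasim), 2 to 3 (Sayeok) and 4 to 8 (Bojungikgi), and at 20 µg/mL 1 to 3, 1 to 4 and 1 to 2. Between extracts they were 2 to 2 (Banhasasim and Sayeok), 2 to 4 (Banhasasim and Bojungikgi) and 0 to 0 (Bojungikgi and Sayeok). Over all genes, the lowest and highest counts were 636 to 1518 for Banhasasim 500 against 20 µg/mL, 164 to 355 for Bojungikgi and 386 to 445 for Sayeok, and 169 to 535 between Banhasasim and Bojungikgi. Against the vehicle they were 1470 to 3075, 1438 to 3795 and 2826 to 6053 at 500 µg/mL (Banhasasim, Sayeok, Bojungikgi) and 297 to 3490, 991 to 4373 and 845 to 4352 at 20 µg/mL. The causes were not tested.

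Over all genes, with no filter the calls went from 331 to 606 for Bojungikgi 500 against 20 µg/mL, from 16, 0 and 2 to 86, 112 and 76 for 100 against 20 µg/mL of Banhasasim, Sayeok and Bojungikgi, and from 196, 386 and 5 to 327, 962 and 182 between extracts. With only the compared groups those counts were 53, then 46, 1 and 5, then 154 (Banhasasim and Bojungikgi) and 3 (Bojungikgi and Sayeok). Against the vehicle they went from 2870, 3117 and 5579 to 648, 1264 and 189 at 500 µg/mL and from 2378, 3554 and 3440 to 38, 1537 and 1985 at 20 µg/mL. DESeq2 gave 11 between Bojungikgi and Sayeok. Of the other pathway genes, the fit with only the compared groups called 8, 5 and 0 at 500 µg/mL and 0, 7 and 12 at 20 µg/mL against the vehicle, in place of 30, 19 and 42 and 11, 20 and 20. It called 1 for Bojungikgi 500 against 20 µg/mL (DESeq2 7, in place of 4), and 0 for Banhasasim against Sayeok and against Bojungikgi. RLE size factors, DESeq2, no filter, the replicate block and leaving out mitochondrial ribosomal RNA genes each called 2 for Banhasasim against Sayeok, in place of 1. For Banhasasim at 20 µg/mL against the vehicle DESeq2 and the fit with no filter called 18 in place of 11.

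NKD1, ASCL2 and EPHB2 were the members of lowest count and widest intervals. The parts of depth and of other spread between libraries in those intervals were not tested. With 2 or 3 libraries per group, calls near the threshold depend on single libraries.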
